A study of Homo sapiens with 12 samples.

Results

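CXCL8, which encodes the neutrophil attractant interleukin-8, was lower in sorafenib-resistant than in parental cells of both liver cancer lines examined. It is described here together with CXCL1, CXCL2, CXCL3, CXCL5, CXCL6, CXCL10, CXCL16, CCL2 and CCL20. These 10 chemokine genes were picked by their symbols from the tables of all 12 samples, and 9 of the 10 were found among 27249 genes with an Ensembl identifier. The level of CXCL5 was not analysed here. The genes were picked with their levels in the 4 groups already known, so their values are a description and carry no p-value. RNA was sequenced from Huh7 cells, a line from a hepatocellular carcinoma, and HepG2 cells, a liver tumour line that is often classed as hepatoblastoma and that the labels call hepatocellular carcinoma. Per the labels, all groups were of WT genotype. The resistant cells (Huh7 resistant and HepG2 resistant, 3 samples each) were survivors of repeated exposure to sorafenib, a multikinase inhibitor, from a first dose of 10 μmol and with increasing concentration over 8 months. The parental cells (Huh7 parental and HepG2 parental, 3 samples each) are the sorafenib-sensitive cells of the same lines. The sources used here do not say whether the samples of a group came from separate cultures or selections, or whether sorafenib was present at harvest, so p-values measure the spread between these samples, which may be technical.

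Chemokines are small secreted proteins that attract leukocytes through receptors coupled to G proteins. CXCL8 and its relatives CXCL1, CXCL2, CXCL3, CXCL5 and CXCL6 lie in a cluster on the long arm of chromosome 4 and bind CXCR2 on neutrophils, with CXCL8 and CXCL6 also binding CXCR1. In epithelial and liver cells their transcription is typically switched on by NF-κB, with AP-1 and C/EBP factors, after IL-1, TNF or Toll-like receptor signals, and their mRNAs are kept short-lived by proteins that bind AU-rich elements. CXCL10 is induced by interferon and attracts T cells through CXCR3, CCL20 attracts CCR6-bearing lymphocytes and dendritic cells, CCL2 attracts monocytes through CCR2, and CXCL16 is a membrane-anchored ligand of CXCR6 that is shed by ADAM10 and ADAM17.

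Promoter stretches are shown here for the measured chemokines that have a RefSeq window, because they carry the letters that NF-κB factors are known to bind. The windows hold 300 bases on GRCh38.p14, from 250 bases before to 50 bases after the RefSeq gene start, and were at hand for 8 of the 10 genes but not for CXCL16 and CCL2. Capitals mark the matches to GGNNNTTCC, to the AP-1 motif TGANTCA and to an interferon regulatory factor motif of GAAA, any 2 bases and GAAA again, each searched on both strands and all chosen after the sequences had been seen. The CXCL8 stretch is chr4:73740428-73740505 on the plus strand and starts with the AP-1 match. The CXCL1 stretch is chr4:73869265-73869367 on the plus strand. The CXCL10 stretch is chr4:76023580-76023723 on the minus strand and holds the interferon-type match near its 5′ end. The CCL20 stretch is chr2:227813713-227813790 on the plus strand, which lies within an intron of a longer GENCODE transcript of the gene. Only 25 bases are shown for CXCL2 (chr4:74099256-74099280, minus strand), CXCL3 (chr4:74038751-74038775, minus strand) and CXCL6 (chr4:73836581-73836605, plus strand).
CXCL8: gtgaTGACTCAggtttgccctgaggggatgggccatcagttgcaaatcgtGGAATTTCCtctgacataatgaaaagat
CXCL1: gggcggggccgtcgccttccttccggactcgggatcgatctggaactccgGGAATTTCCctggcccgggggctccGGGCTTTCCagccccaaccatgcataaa
CXCL2: gagctccgGGAATTTCCctggcccg
CXCL3: gagctccgGGAATTTCCctggcccg
CXCL6: gagttcagGGAATTTCCccagcatc
CXCL10: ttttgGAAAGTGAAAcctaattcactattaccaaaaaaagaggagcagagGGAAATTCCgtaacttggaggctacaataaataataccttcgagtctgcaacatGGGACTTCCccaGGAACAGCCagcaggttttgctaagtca
CCL20: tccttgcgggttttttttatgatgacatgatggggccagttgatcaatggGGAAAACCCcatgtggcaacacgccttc

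The letters GGNNNTTCC were found in all 8 of the 8 chemokine windows, against 20.1% of 35116 promoter windows of the same length. The stricter GGAATTTCC, which is contained in the first motif, was found in 7 of the 8, all but CCL20, against 0.461% of all windows. Its match lay 91 to 83 bases before the start in CXCL8 and 77 to 69 bases before it in CXCL2. TGANTCA was found in CXCL8 alone among the 8 (7.71% of all windows) and the interferon regulatory factor motif in CXCL10 alone (3.57%). TATAAA was found in CXCL8 and CCL20 (11.5%). The 25 bases shown for CXCL2 and CXCL3 have the same letters, and CXCL1, CXCL2 and CXCL3 are close paralogs, so that reads may have been split between these 3 genes. A match describes these letters and does not show that a factor was bound in these cells.

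Levels are given as FPKM, that is reads or fragments scaled to exon length and library depth, which allows genes to be compared per length. The reads behind a value were recovered from it, the exon length and the depth, and the depth was 12290258 to 19286008 reads per sample, lowest in parental HepG2 cells (12290258 to 15728314). A gene entered the fit of a line if 3 of its 6 samples reached 1 FPKM, and was tested with limma on log2(FPKM + 1), two-sided, and is called changed at a Benjamini-Hochberg adjusted p under 0.05 and a log2 fold change beyond 1. All log2 fold changes are resistant minus parental on the log2(FPKM + 1) scale, which understates the change of low genes. By this rule, 22.6% of 12554 genes were called in Huh7 and 6.27% of 11762 in HepG2. In HepG2 the split of 387 higher and 350 lower genes became 290 and 429 with median-ratio scaling, 320 and 398 with upper-quartile scaling and 279 and 444 with the GC trend removed. In Huh7, log2 fold changes across genes rose with the GC content of the transcript (Spearman's rho 0.62, against 0.04 in HepG2, across genes, which are not independent replicates), so the value after removal of this trend is given beside each single gene in Huh7 whose call it ended or whose log2 fold change it turned or moved by over 1.5 times. All 10 liver cell markers, from ALB to GPC3, were above 1 FPKM in all 4 groups. Their summed level was 5813 to 6013 FPKM in resistant and 8373 to 10114 FPKM in parental Huh7 cells, and 3912 to 4199 FPKM in resistant and 4979 to 6100 FPKM in parental HepG2 cells. AFP was called lower in both lines, in Huh7 with a log2 fold change of -1.21, and -0.47 and not called with the GC trend removed. The fibrinogen gene FGB was called lower in HepG2 (47.3 to 11.2 FPKM, log2 fold change -1.98). In each line, 6 of the 10 had a log2 fold change above 0, and 0 were called higher. APOA1 had 0.97 in Huh7, or 0.47 with the GC trend removed, and 0.89 in HepG2. It was called higher in each line under some of the other settings. The summed levels of 10 leukocyte markers were 3.46 to 4.20 FPKM in resistant and 2.27 to 3.66 FPKM in parental Huh7 cells, and 8.20 to 9.02 FPKM in resistant and 6.77 to 8.40 FPKM in parental HepG2 cells. Those of 8 endothelial markers did not exceed 3.92 FPKM in any sample. Of the stromal list, 8 of 9 markers were in the tables and summed to 4.43 to 6.03 FPKM in Huh7 and 15.6 to 26.4 FPKM in HepG2, where ACTA2 made up most of it. CD68 in parental Huh7 cells, KDR in parental HepG2 cells and LUM in resistant HepG2 cells were at 0 in all 3 samples. Of the tested markers of these 3 lists, RGS5 was called lower in Huh7 (log2 fold change -1.16, and -0.28 and not called with the GC trend removed). There, CD14 (log2 fold change 0.79, adjusted p = 0.00509, limma) and PECAM1 (0.31, adjusted p = 0.0208, limma) were higher but missed the fold threshold. With the GC trend removed, they had 0.25 and 0.12. CD14 was called higher in Huh7 with limma-voom and with a pseudocount of 0.1. In HepG2, 0 were called by limma, beside 6.27% of all genes. PECAM1 (-0.81, adjusted p = 0.0117, limma) and PDGFRB (-0.56, adjusted p = 0.0473, limma) were lower there but missed the fold threshold. PECAM1 was called lower in HepG2 with limma-voom and with a pseudocount of 0.1. Whether these marker levels play a part in the chemokine levels was not tested, and in bulk RNA fewer expressing cells and less RNA per cell cannot be told apart.

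CXCL8 (ENSG00000169429, chr4:73740506-73743716, plus strand, GRCh38) was measured at 23.1, 19.8 and 19.7 FPKM in the 3 samples of parental Huh7 cells and at 2.57, 2.99 and 3.52 FPKM in resistant Huh7 cells. In HepG2, it was measured at 24.8, 18.8 and 26.5 FPKM in parental and at 0.805, 0.601 and 0.818 FPKM in resistant cells. All 3 resistant samples lay below all 3 parental samples in both lines. The values rest on 724 to 941 reads in parental and 111 to 152 reads in resistant Huh7 cells, and on 525 to 948 and 25 to 32 reads in HepG2. The mean was 20.9 ± 1.91 FPKM against 3.03 ± 0.473 FPKM (SD, n = 3) in Huh7, 6.90 times higher in parental cells, a log2 fold change of -2.44 with a standard error of 0.12. In HepG2 it was 23.4 ± 4.06 FPKM against 0.741 ± 0.121 FPKM (SD, n = 3), 31.5 times higher in parental cells, with a log2 fold change of -3.79 and a standard error of 0.16. The parental lines stood first and second in level with overlapping ranges, followed by resistant Huh7 and then resistant HepG2 cells, whose ranges overlapped with none of the others. CXCL8 has a transcript of 33.4% GC, low beside the median of 46.9% over tested genes, and its log2 fold change in Huh7 became -1.42 once the GC trend was removed, while that in HepG2 became -3.87.

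**Figure D1:**
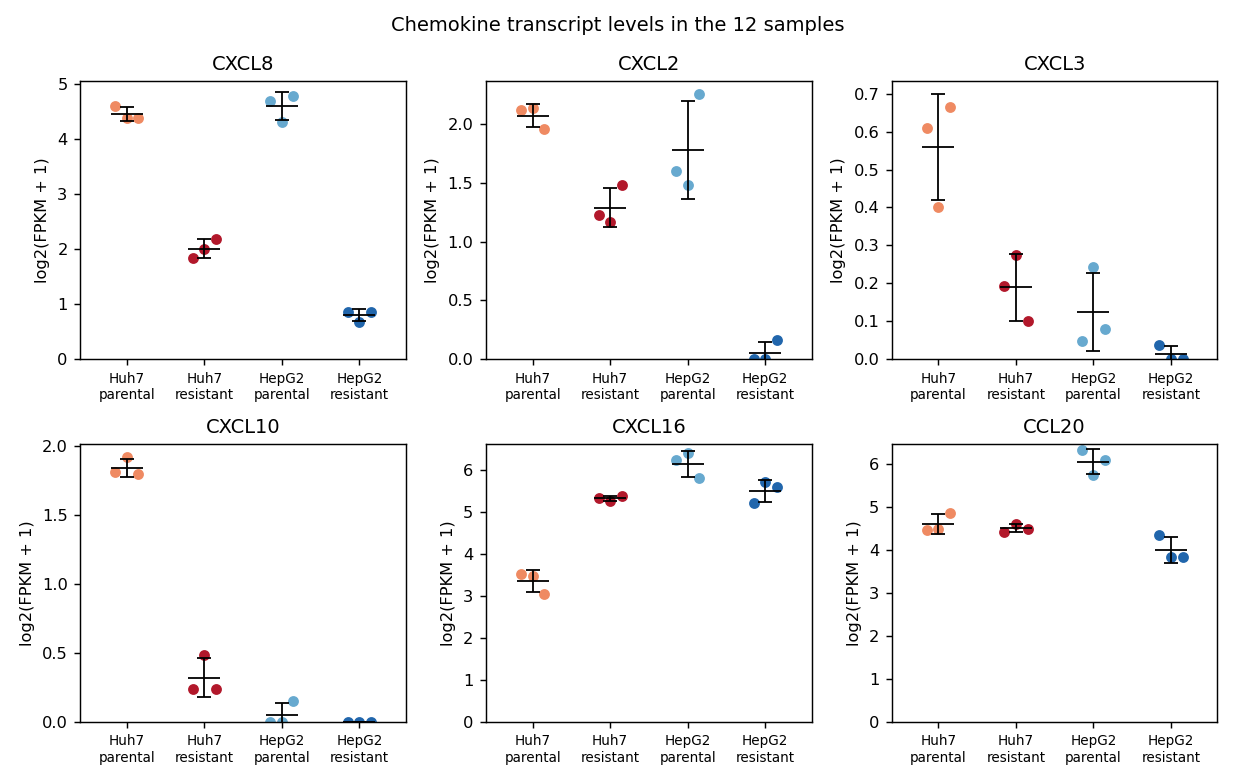
Levels of 6 chemokine genes on the log2(FPKM + 1) scale (vertical axes, each panel with its own range from 0) in the 4 groups, with a point per sample, a horizontal dash at the mean and bars of 1 SD (n = 3). CXCL8 was lower in the resistant samples of both lines, CXCL10 was above 1 FPKM only in parental Huh7 cells, and CXCL16 was higher in resistant Huh7 samples but lower in resistant HepG2 samples.

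Of the other CXCR2 ligands, CXCL2 was the only one above 1 FPKM. It was measured at 3.34, 3.40 and 2.89 FPKM in parental and 1.34, 1.24 and 1.79 FPKM in resistant Huh7 cells, and at 2.03, 1.79 and 3.77 FPKM in parental HepG2 cells. In resistant HepG2 cells it was at 0 in 2 samples and at 0.116 FPKM, from 3 reads, in the third. The resistant samples of each line lay below its parental samples. In Huh7, the mean was 2.21 times higher in parental cells, with a log2 fold change of -0.78 and a standard error of 0.11 that stayed under the fold threshold, but passed it with a pseudocount of 0.1 (-1.10) and with limma-voom (-1.21). In HepG2, where no resistant sample exceeded 3 reads, the parental mean of 2.53 FPKM was at least 22.1-fold higher than the level of 3 reads per library. This bound covers counting error only.

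CXCL3 was low in all groups, with 21, 12 and 21 reads in parental and 6, 9 and 3 reads in resistant Huh7 cells. The resistant samples lay below the parental ones, with means of 0.141 and 0.478 FPKM. The log2 fold change was -0.37, and -0.64 with the GC trend removed. In HepG2, it had 1, 5 and 2 reads in parental samples and 1, 0 and 0 reads in resistant samples, so no fold is given. CXCL6 was seen with 5, 1 and 1 reads in parental Huh7 samples and with 0 reads in the other 9 samples. CXCL1 had at most 3 reads in any sample, and CCL2, the monocyte attractant, had 1 read in 1 resistant Huh7 sample and 1 read in 1 parental HepG2 sample. A difference between groups was not detectable at this depth for CXCL1 and CCL2. In all 4 groups CXCL8 had the highest mean among the measured CXCR2 ligands.

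CXCL10, the interferon-inducible ligand of CXCR3, was measured at 2.51, 2.78 and 2.47 FPKM in parental and at 0.179, 0.397 and 0.179 FPKM in resistant Huh7 cells. The groups did not overlap, and the parental mean was 10.3 times the resistant one, from 155 reads against 17 reads in all. The log2 fold change was -1.52 with a standard error of 0.09, and it became -0.70 with the GC trend removed. In HepG2, it was seen only in 1 parental sample, with 2 reads.

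CCL20, the ligand of CCR6, was measured at 79.2, 52.8 and 67.4 FPKM in parental and at 19.4, 13.2 and 13.2 FPKM in resistant HepG2 cells. The resistant samples all lay below the parental ones, and the means of 15.3 and 66.5 FPKM differed 4.35 times, a log2 fold change of -2.05 with a standard error of 0.24. In Huh7, it was measured at 21.0, 21.6 and 28.2 FPKM in parental and at 20.4, 23.3 and 21.6 FPKM in resistant cells. These groups overlapped, with a log2 fold change of -0.10 and a standard error of 0.14, which became 0.83 once the GC trend was removed and 0.03 without parental sample 3, so that no direction is given. A NONCODE transcript that overlaps the 3′ end of CCL20 on the opposite strand was listed at 4.49 to 5.02 FPKM in parental and 1.13 to 2.05 FPKM in resistant Huh7 cells. In HepG2 it was listed at 5.68 to 6.75 FPKM in parental and 2.73 to 6.10 FPKM in resistant cells. The sources used here do not say that strand was used in counting, so reads over the shared bases cannot be told apart.

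CXCL16, the membrane-anchored ligand of CXCR6, was higher in resistant than in parental Huh7 samples and lower in resistant than in parental HepG2 samples, with no overlap in either line. It was measured at 10.5, 10.2 and 7.24 FPKM in parental and at 39.7, 37.2 and 40.7 FPKM in resistant Huh7 cells. In HepG2 it was measured at 74.4, 84.0 and 55.3 FPKM in parental and at 36.3, 52.0 and 47.1 FPKM in resistant cells. The resistant mean was 4.22 times the parental one in Huh7, a log2 fold change of 1.98 with a standard error of 0.16, and 1.47 after removal of the GC trend. In HepG2 the parental mean was 1.58 times the resistant one, a log2 fold change of -0.64 with a standard error of 0.23. Resistant Huh7 and resistant HepG2 samples overlapped in level, whereas parental HepG2 cells were above and parental Huh7 cells below both.

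By the rule for all genes, CXCL8 and CXCL10 were lower and CXCL16 higher in resistant Huh7 cells, so that 3 of the 5 chemokines that passed the filter met it, beside 22.6% of all genes tested (14.0% lower and 8.59% higher). With the GC trend removed, CXCL10 was under the fold threshold, at -0.70, and 1490 of 12554 genes were called in Huh7. In HepG2, CXCL8, CXCL2 and CCL20 were lower, that is 3 of 4 beside 6.27% of all genes tested (2.98% lower and 3.29% higher). Nothing is read from these counts, since the genes were picked with their levels known, and CXCL10 in Huh7 and CXCL8 and CXCL2 in HepG2 passed the filter only through the parental samples. Of the 5 that passed the filter in Huh7, 3 had resistant samples all below the parental ones and 1 had them all above, beside 39.2% and 35.2% of all genes tested. In HepG2, all 4 had them below, beside 15.5% of all genes tested (24.9% above). The genes under the filter, some of them with a few reads, are not in these counts.

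**Figure D2:**
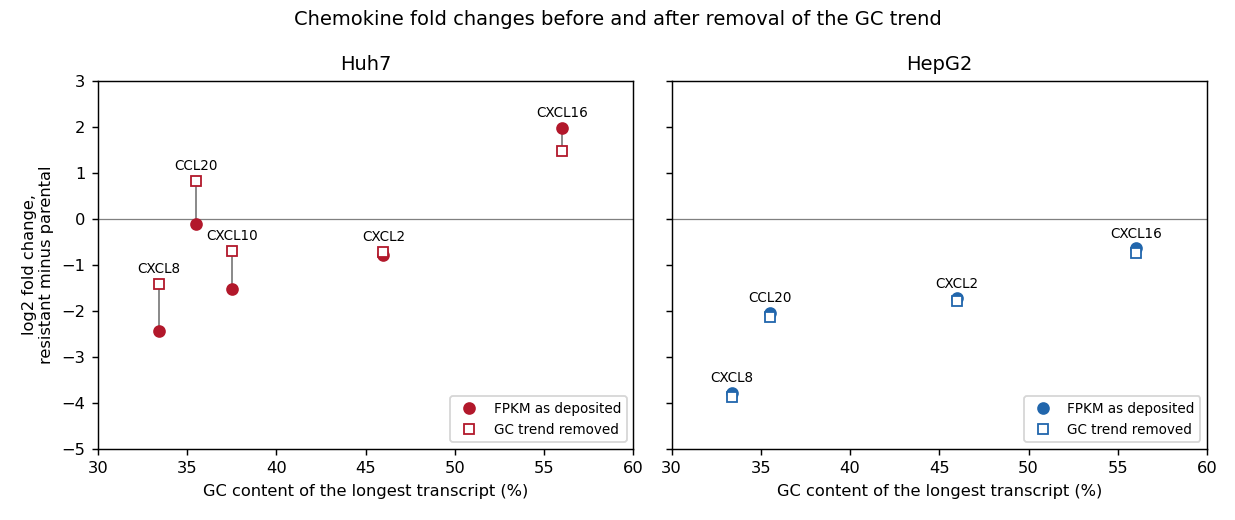
Log2 fold change (resistant minus parental) of the chemokines with more than 3 reads in a sample of either group and at least 1 FPKM in a group, against the GC content of their longest transcript, before (filled circles) and after (open squares) removal of the GC trend, in Huh7 and HepG2. In Huh7, the AT-rich CXCL8, CCL20 and CXCL10 moved up, from -2.44 to -1.42 for CXCL8 and from -0.10 to 0.83 for CCL20, and CXCL16 moved down, while in HepG2 the 4 genes shown moved by little.

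The make-up of the chemokine transcripts changed with these levels. The summed FPKM of the 9 genes was 58.1 to 61.3 in parental and 64.4 to 67.9 in resistant Huh7 samples, and 153 to 180 in parental and 56.6 to 65.8 in resistant HepG2 samples. CXCL8 made up 32.1% to 37.8% of this sum in parental Huh7 cells and 4.0% to 5.18% in resistant ones. In HepG2 its share was 11.9% to 17.3% in parental and 0.914% to 1.42% in resistant cells. CCL20 and CXCL16 together made up 51.5% to 57.9% in parental Huh7 and 80.1% to 86.8% in parental HepG2 samples, but 91.8% to 99.1% in the resistant samples of both lines. These shares are of FPKM, which weight a short and a long transcript alike, and no test was made of them.

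**Figure D3:**
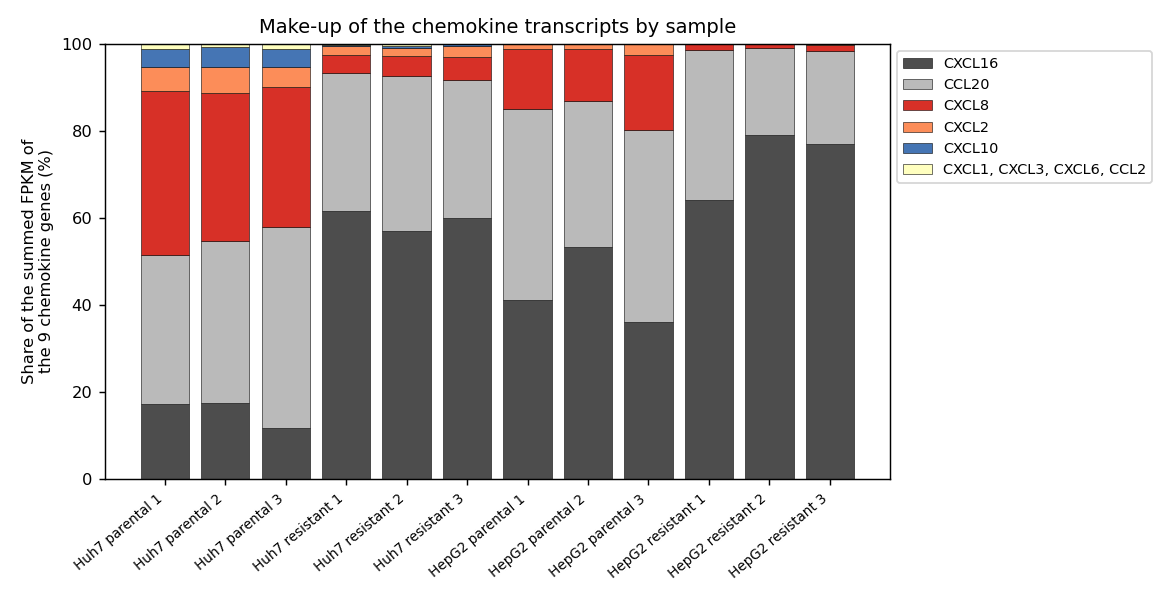
Share of the summed FPKM of the 9 chemokine genes (vertical axis, %) taken by each gene in each of the 12 samples (bars). CXCL8 took 32.1% to 37.8% in parental Huh7 samples and no more than 5.18% in any resistant sample, where CXCL16 and CCL20 made up at least 91.8%.

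Of the 9 chemokines, 6 lie on chromosome 4, and around the CXCL8 start 16 genes of the tables lie within 500 kb. Among these, 5 passed the filter in a line, namely the albumin gene ALB, the alpha-fetoprotein gene AFP, CXCL8, CXCL2 and MTHFD2L, which encodes a mitochondrial folate enzyme. AFP, at -309.4 kb from the CXCL8 start, was called lower in both lines, with means of 2291 FPKM in resistant against 5332 FPKM in parental Huh7 cells (log2 fold change -1.21, adjusted p = 0.000534, limma) and 366 against 1394 FPKM in HepG2 (-1.91, adjusted p = 0.000895, limma). The call in Huh7 was lost with the GC trend removed, at -0.47, and without the filter. ALB, at -343.4 kb, had log2 fold changes of -0.46 in Huh7 and -0.93 in HepG2 and was not called, but with the GC trend removed it had 0.07 in Huh7 and was called in HepG2, at -1.03. ALB was also called in HepG2 with median-ratio scaling and without resistant sample 1 or parental sample 2. MTHFD2L, at 373.7 kb and next to CXCL2 at 356.5 kb, had -0.61 and -0.15 and was not called, and with the GC trend removed it had 0.28 and -0.24. The platelet chemokine genes PF4, PF4V1 and PPBP, which lie between CXCL8 and CXCL3 in this cluster, did not reach 1 FPKM in any sample, with a highest level of 0.348 FPKM for PF4.

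**Figure D4:**
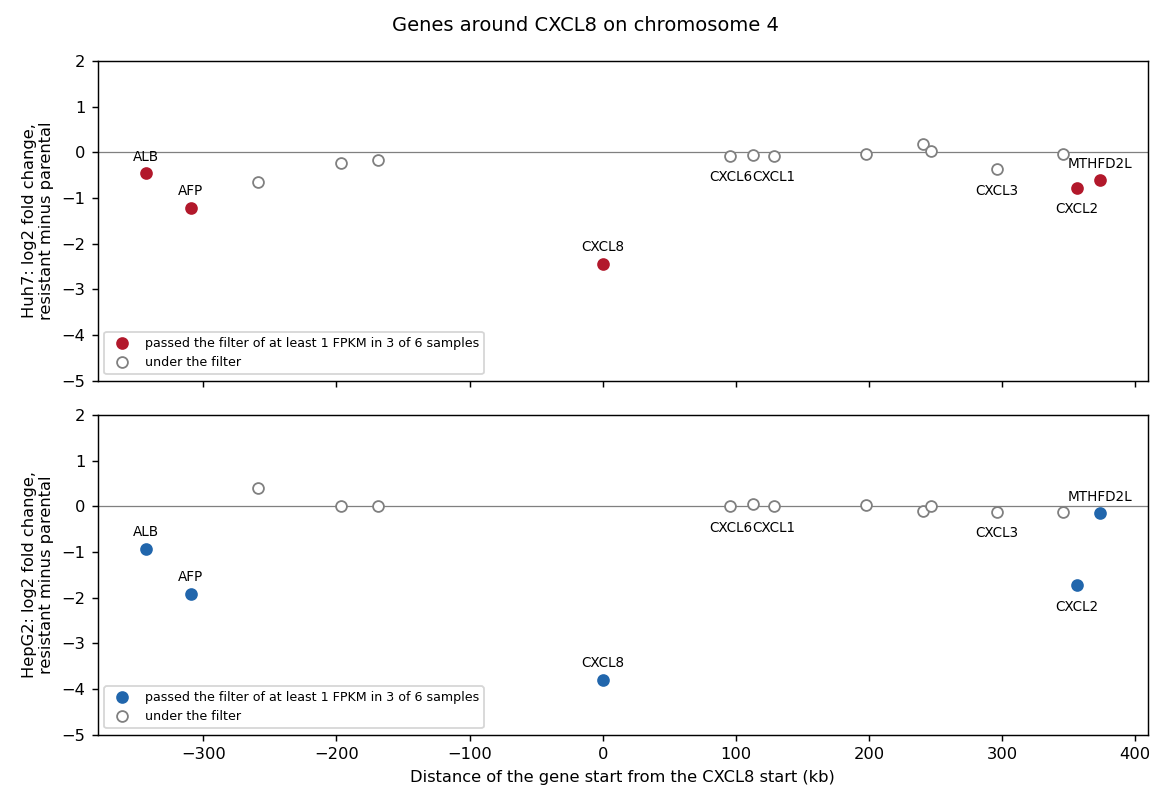
Log2 fold change (resistant minus parental) of the genes of the tables within 500 kb of the CXCL8 start, against the distance of their start from it in kb, in Huh7 (top) and HepG2 (bottom). Filled points passed the filter of at least 1 FPKM in 3 of 6 samples and open grey points did not. CXCL8 at 0 kb had the lowest value in both lines, at -2.44 and -3.79.

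Over the 12 samples, the genes whose log2(FPKM + 1) was most like that of CXCL8 among 13627 genes tested in a line were CDC7, a kinase needed for the start of DNA replication (Pearson's r 0.977), TMEM56 (0.970), the ribosome maturation factor SBDS (0.966), the zinc finger protein HIVEP2 (0.966) and the palmitoyltransferase ZDHHC2 (0.958). They were followed by the leptin receptor LEPR (0.958), the nuclear import receptor KPNA4 (0.951), the glucose transporter SLC2A2 (0.948), PLEKHH2 (0.946) and the sorting nexin SNX9 (0.944). LEPR had means of 1.94 and 0.588 FPKM in parental and resistant Huh7 cells and of 1.91 and 0.145 FPKM in HepG2. Among the chemokines themselves, r with CXCL8 was 0.912 for CXCL2, 0.744 for CCL20, 0.512 for CXCL10 and -0.294 for CXCL16. For CXCL16, the genes most like it were the F-box gene FBXO41 (0.988), the calcium channel of the endoplasmic reticulum ITPR3 (0.988), the mitochondrial ribosomal protein gene MRPL10 (0.986), EBNA1BP2 (0.985) and the cytochrome P450 gene CYP2S1 (0.984). The 12 points share the same 4 groups, so r follows the group means, and no p-value is given. The GC trend was not removed from the values behind r. CXCL8 has a transcript of 33.4% GC, below the median of 46.9% over tested genes. The genes listed as most like CXCL8 also lay below this median, except HIVEP2 and SNX9. CXCL16 and all the genes listed as most like it lay above it. Whether GC content plays a part in these r values was not tested.

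Most other chemokine genes were hardly expressed. Of 31 further chemokine genes in the tables, 24 stayed under 1 FPKM in all 12 samples. In Huh7, 1 of 4 tested was called higher (25.0%, beside 22.6% of all genes) and 0 lower by limma, with 1 lower at an unadjusted p under 0.05 and 0 lower by limma-voom. CCL15, an attractant of monocytes and T cells, rose from 0.536, 0.381 and 0.238 FPKM in parental to 5.61, 5.25 and 4.05 FPKM in resistant Huh7 cells (log2 fold change 2.10, SE 0.14, adjusted p = 1.67e-05, limma). CCL15 passed the filter in Huh7 only through the resistant samples, which favours its call. Its HepG2 samples lay between 7.30 and 9.12 FPKM in both groups. In HepG2, 1 of 6 tested was called higher (16.7%, beside 6.27% of all genes) and 0 lower by limma or limma-voom, with 0 lower at an unadjusted p under 0.05. CX3CL1, the transmembrane chemokine fractalkine, which like CXCL16 is anchored by a mucin stalk, rose from 5.14, 5.98 and 5.50 FPKM in parental to 18.8, 27.6 and 24.8 FPKM in resistant HepG2 cells (log2 fold change 1.90, SE 0.17, adjusted p = 0.000438, limma). In Huh7 its samples lay the other way, at 12.5, 9.43 and 9.0 FPKM in parental and 8.58, 7.02 and 8.40 FPKM in resistant cells. They did not overlap, but the log2 fold change of -0.32 did not pass the test (adjusted p = 0.0726, limma), and it was -0.81 and still under the fold threshold with the GC trend removed (adjusted p = 0.000161, limma). The median over the tested genes of this list was 0.23 in Huh7 and -0.03 in HepG2, beside -0.04 and 0.12 over all genes.

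The receptors for CXCL8 were nearly undetected in these cells: CXCR1 did not exceed 0.0306 FPKM and CXCR2 did not exceed 0.0677 FPKM in any sample. Of 23 receptor genes, 14 stayed under 1 FPKM in all samples, among them CCR6, CXCR3 and CCR2, the receptors of CCL20, CXCL10 and CCL2, with highest levels of 0.501, 0.763 and 0.634 FPKM. CXCR6, the receptor of CXCL16, was measured at 1.16 to 2.27 FPKM in Huh7 and at 1.79 to 3.21 FPKM in HepG2, and was not called in either line. In Huh7, 2 of 7 tested receptors were called higher and 1 lower (42.9%, beside 22.6% of all genes). Of these, CCRL2 passed the filter only through the resistant and ACKR4 only through the parental samples. This favours a call, so nothing is read from the share. CCRL2, which binds chemerin, rose from 0.492, 0.349 and 0.121 to 4.15, 4.59 and 4.28 FPKM (log2 fold change 2.02, adjusted p = 1.4e-05, limma), and ACKR3, a scavenger of CXCL12, rose with a log2 fold change of 1.16 (adjusted p = 0.00017, limma). ACKR4, a scavenger of CCL19 and CCL21, fell with a log2 fold change of -1.50 (adjusted p = 7.08e-05, limma). The calls of ACKR3 and ACKR4 were lost when the GC trend was removed, at 0.98 and -0.66. In HepG2, 0 of 2 tested receptors were called by limma, beside 6.27% of all genes, and 0 had an unadjusted p under 0.05 or were called by limma-voom.

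Of the NF-κB subunits and inhibitors, 18 of 19 tested genes in Huh7 and 16 of 18 in HepG2 were not called (5.26% and 11.1% called, beside 22.6% and 6.27% of all genes). By limma or limma-voom, 0 were called higher in either line, and limma-voom called 3 lower in each line. At an unadjusted p under 0.05, limma had 6 higher and 7 lower in Huh7, and 0 higher and 7 lower in HepG2. In HepG2, RELB, the subunit of the alternative NF-κB pathway, fell from 5.70, 7.10 and 7.25 to 1.36, 1.77 and 0.996 FPKM (log2 fold change -1.70, SE 0.17, adjusted p = 0.000773, limma). NFKBIZ, the nuclear inhibitor homologue that takes part in the induction of some NF-κB target genes, fell from 8.76, 6.76 and 8.39 to 2.58, 2.06 and 2.06 FPKM (-1.47, adjusted p = 0.00088, limma). In Huh7, NFKBIZ had a log2 fold change of -0.97 and was not called, but it was with a pseudocount of 0.1 (-1.03), with limma-voom (-1.10), without resistant sample 2 (-1.04) and without parental sample 1. There, TNFAIP3, which encodes the feedback inhibitor A20, fell from 5.05, 5.30 and 4.64 to 1.53, 2.00 and 2.17 FPKM (-1.05, adjusted p = 0.000142, limma), a call that was lost without resistant sample 1, at -0.96 and with median-ratio scaling. RELA and NFKB1, which encode p65 and the precursor of p50, had log2 fold changes of 0.78 and 0.27 in Huh7 and of -0.03 and -0.62 in HepG2, and NFKBIA, which encodes IκBα, had 0.66 and -0.16. With the GC trend removed, the Huh7 values were 0.25 for RELA, 0.03 for NFKB1 and 0.25 for NFKBIA. None of these 3 was called. In Huh7 they missed the fold threshold only (adjusted p = 0.00158 for RELA, 0.0443 for NFKB1 and 0.00231 for NFKBIA, limma). With the GC trend removed, the adjusted p was 0.0166, 0.672 and 0.0298 (limma).

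Of the IL-1, TNF and Toll-like receptor genes, 3 of 21 were called higher and 2 lower in Huh7, a share of 23.8% beside 22.6% of all genes. In HepG2, 0 of 20 were called higher and 1 lower, 5.0% beside 6.27% of all genes, where 4 were higher at an unadjusted p under 0.05 and 1, TLR2, was called higher by limma-voom. The TNF receptor gene TNFRSF1A rose from 5.34, 3.53 and 3.65 to 30.3, 25.0 and 27.3 FPKM in Huh7 (log2 fold change 2.48, SE 0.15, adjusted p = 1.18e-05, limma). The IL-1 receptor gene IL1R1 fell from 9.26, 11.6 and 9.49 to 2.95, 4.16 and 3.69 FPKM (-1.27, adjusted p = 0.000109, limma). MYD88, an adaptor of IL-1 and Toll-like receptors, rose by 1.29, the lymphotoxin receptor gene LTBR rose by 1.09, and MAP3K7, which encodes the kinase TAK1, fell with -1.20 on the log2 scale. With the GC trend removed, these 3 calls were lost, at 0.94, 0.61 and -0.45, and LTBR was also lost without parental sample 3, at 0.99. In HepG2, LY96, which encodes the TLR4 partner MD-2, fell from 4.77, 2.01 and 2.09 to 0.584, 0.901 and 0.0957 FPKM (-1.34, adjusted p = 0.0174, limma), a call lost without resistant sample 3 (-1.12, adjusted p = 0.0551, limma) and without the filter (adjusted p = 0.0719, limma). LY96 passed the filter in HepG2 only through the parental samples, which favours its call. The ligand genes IL1B and TNF did not exceed 0.864 and 0.283 FPKM in any sample.

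Of the AP-1 and C/EBP genes, 0 of 9 were called higher and 4 lower in HepG2, a share of 44.4% beside 6.27% of all genes. Of these 4, ATF3 passed the filter only through the parental samples, which favours its call. In Huh7, 2 of 9 were called higher and 0 lower, 22.2% beside 22.6% of all genes, and FOS passed the filter only through the resistant samples. In HepG2, JUN fell from 18.2, 18.2 and 18.9 to 5.22, 5.90 and 6.47 FPKM (log2 fold change -1.51, SE 0.13, adjusted p = 0.000438, limma). FOSL2 fell from 14.8, 13.4 and 7.13 to 2.42, 3.50 and 2.80 FPKM (-1.66, adjusted p = 0.00408, limma). ATF3 and CEBPB, the latter encoding a C/EBP factor of acute phase and cytokine genes, fell with log2 fold changes of -1.19 (adjusted p = 0.0014, limma) and -1.17 (adjusted p = 0.00255, limma). The median over the 9 tested genes was -0.74 in HepG2, beside 0.12 over all genes. In Huh7, FOSL1 rose from 0.975, 0.755 and 1.02 to 8.32, 6.05 and 7.55 FPKM (2.11, SE 0.13, adjusted p = 1.36e-05, limma). FOS rose with a log2 fold change of 1.36 (adjusted p = 6.31e-05, limma), a call lost with the GC trend removed, at 0.97. JUN had a log2 fold change of -0.07 in Huh7, or -0.59 with the GC trend removed, and FOSL1 of -0.44 in HepG2, and neither was called there. The change differed between the lines for JUN (HepG2 minus Huh7 -1.43, adjusted p = 0.000107, limma) and for FOSL1 (-2.55, adjusted p = 5.73e-06, limma) in the interaction test, which called 28.9% of 13628 genes, and both stayed called with the GC trend removed. In the directions without calls by limma, limma-voom called 1 gene lower in Huh7 and 0 higher in HepG2, and at an unadjusted p under 0.05 limma had 2 and 0.

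**Figure D5:**
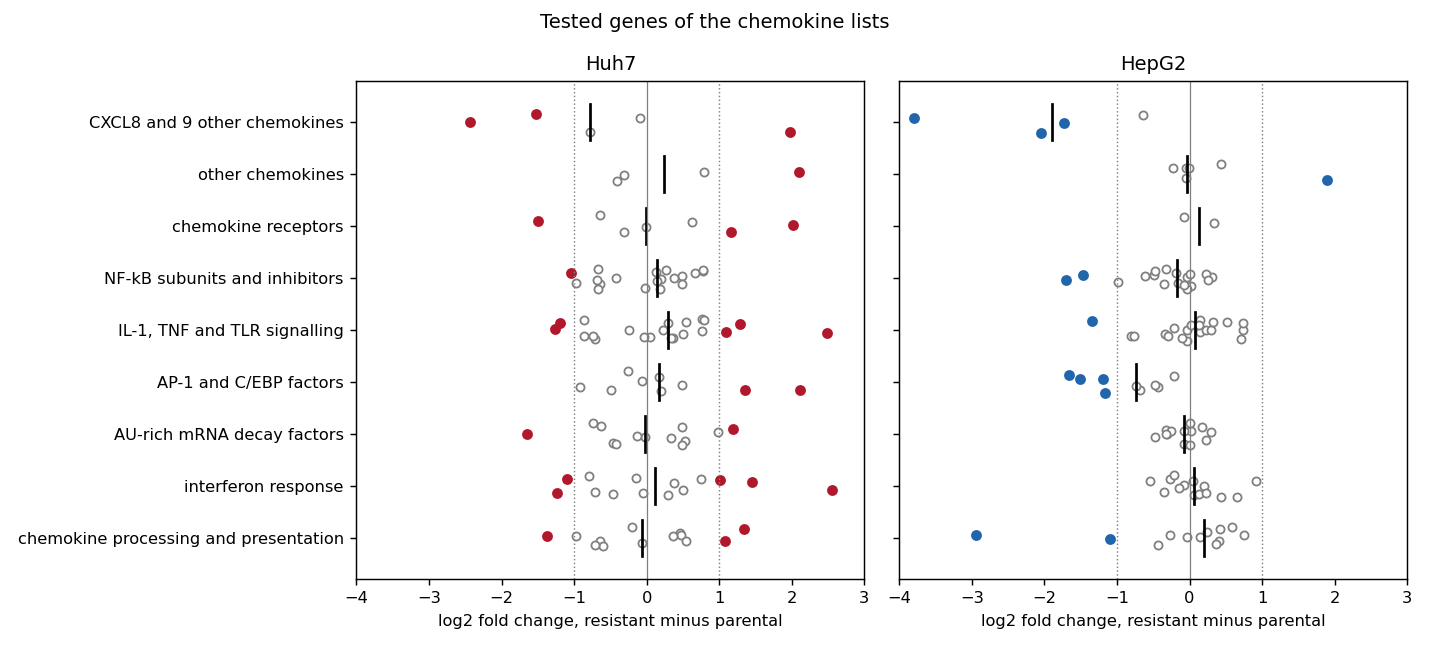
Log2 fold change (resistant minus parental, horizontal axis) of the tested genes of each list in Huh7 and HepG2, with filled points for genes called at an adjusted p under 0.05 and a log2 fold change beyond 1 (dotted lines), open points for the others and a black bar at the median. The vertical scatter within a list has no meaning. In HepG2, 4 of 9 AP-1 and C/EBP genes were called lower, while most other lists lay around 0. Of these 4, ATF3 passed the filter only through the parental samples.

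Among the factors that bind or cut AU-rich mRNAs, 1 of 13 was called higher and 1 lower in Huh7 (15.4%, beside 22.6% of all genes). ZFP36, which encodes tristetraprolin, a factor that promotes decay of such mRNAs, rose from 7.85, 4.99 and 4.96 to 13.4, 14.5 and 15.7 FPKM (log2 fold change 1.19, SE 0.17, adjusted p = 0.000328, limma). TIA1, a translational repressor, fell with a log2 fold change of -1.65 (adjusted p = 3.06e-05, limma). Both calls were lost with the GC trend removed, at 0.66 and -0.78. In HepG2, 0 of 13 were called by limma or limma-voom, beside 6.27% of all genes by limma, with 1 at an unadjusted p under 0.05. ZFP36 had a log2 fold change of -0.31 there.

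The interferon response genes, which were listed for CXCL10, were called in both directions in Huh7, 3 of 14 higher and 2 lower (35.7%, beside 22.6% of all genes). Of these, OAS1 and MX1 passed the filter only through the resistant and JAK2 only through the parental samples. This favours a call, so nothing is read from the share. OAS1, an antiviral enzyme gene, rose from 0.969, 0.828 and 0.575 to 9.29, 9.83 and 9.12 FPKM (log2 fold change 2.55, SE 0.12, adjusted p = 4.45e-06, limma), and MX1, an antiviral GTPase gene, rose with 1.45 (adjusted p = 2.17e-05, limma). IRF3, a factor of interferon induction, rose with 1.01 (adjusted p = 0.000773, limma), a call lost without resistant sample 3, at 0.90, without parental sample 3, at 0.87, and with the GC trend removed, at 0.47. JAK2, a cytokine receptor kinase, and DDX58, which encodes the RNA sensor RIG-I, fell by 1.24 and 1.10 on the log2 scale, and both calls were lost with the GC trend removed, at -0.54 and -0.50. IRF1, a factor of the interferon response, did not pass the filter in either line and was not tested. In HepG2, 0 of 14 were called by limma or limma-voom, beside 6.27% of all genes by limma, with 3 at an unadjusted p under 0.05.

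Of the genes that shed, cut or present chemokines, 2 of 13 were called higher and 1 lower in Huh7, a share of 23.1% beside 22.6% of all genes. In HepG2, 0 of 12 were called higher and 2 lower, 16.7% beside 6.27% of all genes, where 4 were higher at an unadjusted p under 0.05 and 0 were called higher by limma-voom. SDC4, which encodes syndecan-4, a heparan sulfate proteoglycan of the cell surface that binds chemokines, fell from 199, 254 and 156 to 22.1, 26.6 and 26.6 FPKM in HepG2 (log2 fold change -2.94, SE 0.19, adjusted p = 0.000157, limma). HS2ST1, a heparan sulfate sulfotransferase gene, fell with -1.09 (adjusted p = 0.0129, limma), and this call was lost without resistant sample 2, at -0.95, resistant sample 3, at -1.04, or parental sample 1, at -0.95. In Huh7, syndecan-1 (SDC1) rose by 1.34 and the heparan sulfate polymerase gene EXT2 by 1.08, while ADAM10, the sheddase of CXCL16, fell by 1.38 on the log2 scale from 13.7, 15.7 and 18.5 to 5.86, 5.85 and 4.75 FPKM. With the GC trend removed, these 3 calls were lost, at 0.80, 0.95 and -0.60. ADAM17, which also sheds CXCL16, had log2 fold changes of -0.20 in Huh7 and -0.27 in HepG2 and was not called, and the Huh7 value turned to 0.56 with the GC trend removed. DPP4, a peptidase that trims CXCL10, had -0.98 in Huh7 and was not called, but was with a pseudocount of 0.1 (-1.03), with limma-voom (-1.10) and without resistant sample 2 (-1.05), resistant sample 3 (-1.02) or parental sample 1 (-1.02). MMP9 did not exceed 0.113 FPKM in any sample.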

How the data were processed

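The 12 RNA-seq samples were grouped by their labels into resistant and parental cells of each line, 3 to a group. The tables deposited by the authors hold 1 decimal value per gene and sample for 98711 genes, of which 27249 carry Ensembl and 71462 NONCODE identifiers. The unit is not stated, and the pattern of the values is that of FPKM or RPKM, which cannot be told apart. They are called FPKM here and were used as the authors made them. The submitters' processing notes name GRCh38 and bcl2fastq, and the aligner and counter are not given in the sources used here. With exon lengths of GENCODE release 29, 95.5% of values of up to 2000 reads came out within 0.05 of a whole read, as did 62 of the 63 such values of the chemokine genes. A floor of 3 reads per library was used for bounds, which cover counting error only, since PCR copies were not told apart by molecular identifiers. Within a group, samples correlated at 0.953 to 0.985 (Pearson's r, log2 scale).

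Python 3.11.15 with numpy 2.4.6, pandas 2.3.3 and matplotlib 3.10.9 was used for tables and figures. Models were fitted over all genes of a line with R 4.3.3 and limma 3.58.1 (empirical Bayes with a trend), with a pseudocount of 1 and a filter of 1 FPKM in 3 of 6 samples. The difference between the lines was tested as the interaction of line and resistance in all 12 samples. The fit was tested on simulated data. Alternatives were a pseudocount of 0.1, no filter, upper-quartile and median-ratio scaling, removal of a lowess GC trend (span 0.3), a replicate block, no variance trend, limma-voom on recovered reads (for the chemokines and the interaction chosen after seeing the data) and fits without 1 sample. The chemokine genes, gene lists and motifs were chosen with earlier results of these data known. The genes named are the 10 chemokines, the called genes of each list (up to 4 higher and 4 lower per line), a set of receptors, factors and proteases picked by role, the 10 genes most correlated with CXCL8 and the 5 with CXCL16, and expressed markers. The genes near CXCL8, TLR2, the marker genes with calls and the markers at 0 were named outside this rule, after their values were seen. A gene under the rule is not reported here. Promoter sequences and their starts are those of RefSeq on GRCh38.p14, and other gene positions those of GENCODE on GRCh38.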

Additional observations from a re-analysis of the deposited data

Results flagged for a closer look

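The interaction in limma was fitted over all 13628 genes, of which 28.9% were called. By it, the change with resistance differed between the lines for 24 of the 32 named pathway genes called in a line. Since each of the 32 was called in 1 line and not in the other, this choice favoured a called difference. The share over all genes is therefore not a like comparison. Values are the log2 change in HepG2 minus that in Huh7. The changes of the other chemokines CCL15 (-2.11, adjusted p = 9.12e-06) and CX3CL1 (2.23, adjusted p = 1.65e-05) differed in opposite senses, as did those of the receptors CCRL2 (-2.05, adjusted p = 1.61e-06), ACKR3 (-1.16, adjusted p = 0.000143) and ACKR4 (1.83, adjusted p = 0.000469). Among the signalling genes, the change differed for RELB (-1.83, adjusted p = 0.000107), IL1R1 (1.99, adjusted p = 2.48e-05), LY96 (-1.27, adjusted p = 0.0105) and TNFRSF1A (-2.51, adjusted p = 6.98e-06). For 6 AP-1 and C/EBP genes the change in HepG2 lay below that in Huh7, namely FOSL1 (-2.55, adjusted p = 5.73e-06), FOSL2 (-1.86, adjusted p = 0.000347), CEBPB (-1.66, adjusted p = 5.91e-05), FOS (-1.50, adjusted p = 4.88e-05), JUN (-1.43, adjusted p = 0.000107) and ATF3 (-1.18, adjusted p = 2.72e-05).

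The mRNA decay factors TIA1 (1.89, adjusted p = 0.000251) and ZFP36 (-1.50, adjusted p = 0.000166) differed in opposite senses. Of the interferon genes, OAS1 (-2.41, adjusted p = 1.56e-06), MX1 (-1.60, adjusted p = 3.26e-06), IRF3 (-1.36, adjusted p = 0.000564), DDX58 (1.34, adjusted p = 0.000211) and JAK2 (1.29, adjusted p = 9.73e-05) differed. SDC4 (-3.41, adjusted p = 1.9e-06) and ADAM10 (1.78, adjusted p = 0.000101) differed among the processing genes. With the GC trend removed, 19 of the 24 stayed called and JAK2, DDX58, TIA1, ACKR4 and ADAM10 did not, and with limma-voom 22 stayed called and ACKR3 and LY96 did not. CCRL2, ACKR3, FOS and MX1 did not pass the filter in HepG2, nor did LY96 and ATF3 in Huh7. In HepG2, CCRL2 did not exceed 0.0536 FPKM and ACKR3 did not exceed 0.0485 FPKM. The differences for these genes therefore rest mostly on the line where they passed the filter. Whether they responded in the other line was not tested on its own.

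CXCL16 is listed because all 3 resistant samples lay above the parental ones in Huh7 and below them in HepG2, a difference of -2.62 between the log2 changes. This difference was not tested, since the gene was picked with its levels known.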

How the results depend on the processing

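The main limits are the GC trend of the Huh7 comparison, 3 samples per group and low reads for CXCL1, CXCL3, CXCL6 and CCL2. In Huh7, 2838 genes were called, against 4187 with a pseudocount of 0.1, 1490 with the GC trend removed and 4276 with limma-voom, and in HepG2 737, against 1177 with limma-voom and 1101 with a pseudocount of 0.1. Interaction calls numbered 3939, of which 2485 were higher in HepG2 and 1454 lower, against 1959 and 1906 with median-ratio scaling and 1335 and 1516 with the GC trend removed. Leaving out 1 sample gave 2133 to 3006 calls in Huh7, 590 to 804 in HepG2 and 3381 to 4246 for the interaction. With the GC trend removed, the log2 fold change in Huh7 was -1.42 for CXCL8, -0.70 for CXCL10, 1.47 for CXCL16 and 0.83 for CCL20. With a pseudocount of 0.1, it was -2.75 for CXCL8, -1.10 for CXCL2 and -2.99 for CXCL10 in Huh7, and -4.80 for CXCL8 and -4.27 for CXCL2 in HepG2. With limma-voom, it was -2.86, -1.21 and -3.41 in Huh7 and -4.93 and -6.03 in HepG2. A smaller pseudocount lowers low values further by construction. Upper-quartile and median-ratio scaling moved no chemokine by more than the spread between samples. Of 32 called results of pathway genes, 14 were lost with the GC trend removed, and the cause of the trend was not tested. Same-numbered samples correlated in their deviations at 0.084, 0.062 and -0.228 in Huh7 and at 0.246, 0.437 and -0.011 in HepG2. Differently numbered samples correlated at up to 0.282 in Huh7 and 0.21 in HepG2. With 3 samples per group, these values neither show nor exclude that the numbers pair the samples. With a replicate block, 2841, 779 and 3958 genes were called in Huh7, in HepG2 and for the interaction, and all 32 results were kept. Median-ratio scaling moved the median interaction over all genes from 0.15 to 0.00, and removal of the GC trend moved the median in HepG2 from 0.12 to 0.01.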
